A study of Homo sapiens with 6 samples.

Results

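Messages of 41 lysosomal genes were followed in NCI-H1299, an established human non-small cell lung carcinoma line, with and without disruption of IGF2BP3, a cytoplasmic protein that binds many mRNAs. The genes were taken from a fixed list by their symbol in the table, which holds 35784 genes in all. All 41 were found and all 41 passed the filter on low counts. They comprise 24 soluble proteins of the lysosomal lumen, most of them hydrolases, 7 proteins of the lysosomal membrane and 10 subunits or accessory proteins of the vacuolar proton pump, the V-ATPase. The rule uses no measured value, but the list was drawn up with earlier results of these libraries known.

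Total RNA had been sequenced in 6 libraries. The 3 control libraries (labelled KO-NC, with "lenti" in their column names) and the 3 IGF2BP3 knockout libraries came from the same line, grown in serum-supplemented medium. For the knockout, a lentiviral CRISPR vector with guides to IGF2BP3 was delivered, and infected cells were held in puromycin and expanded from single-cell colonies. The labels do not say how many colonies stand behind the 3 libraries of a group, whether the control cells were cloned as well, or whether replicates were separate cultures. A difference between the groups and a difference between colonies therefore cannot be told apart, and the p-values rest on the spread among these libraries alone, which may be technical.

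Lysosomes are acidic organelles in which hydrolases break down proteins, glycans, lipids and sulfated polysaccharides delivered by endocytosis and autophagy. The V-ATPase uses ATP in its cytosolic V1 sector to drive protons through its membrane V0 sector, and the acid activates the hydrolases. Heavily glycosylated membrane proteins line the organelle, while transporters and channels export the products. Many of these genes are known targets of the transcription factors TFEB, TFE3 and MITF, which bind a palindromic element around the letters CACGTG.

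Totals ran from 67674223 counts in knockout replicate 2 to 80810319 in knockout replicate 1. Gene positions are on GRCh38. Levels are given in CPM, which are counts divided by depth and library composition, and, where genes are compared with one another, as the deposited FPKM, which is also per length. IGF2BP3 itself stood at 58.8, 51.6 and 54.1 CPM in control replicates 1, 2 and 3 and 39.9, 25.0 and 22.6 CPM in knockout replicates 1, 2 and 3, so that the groups did not overlap and counts were still assigned to the gene. MALSU1 and 2 smaller genes lie across it on the opposite strand, the most abundant of them with 57.0% of the counts of IGF2BP3. IGF2BP3 shares 1521 of its 8511 exonic bases in GENCODE 29 with MALSU1. Its log2 fold change (knockout minus control, as throughout) was -0.91 with SE 0.20 (adjusted p = 0.017, by edgeR's quasi-likelihood test and the Benjamini-Hochberg method, as throughout), a call lost with control replicate 1, 2 or 3 or knockout replicate 2 left out (adjusted p from 0.050 to 0.067). Among all 20134 genes tested, 19.7% passed an adjusted p of 0.05, 8.21% higher and 11.5% lower in the knockout. On chromosome 16, 374 of 948 tested genes were lower and 6 higher, with a median log2 fold change of -0.49. On the Y chromosome 20 of 25 were higher, with a median of 5.38. None of the 41 lysosomal genes lies on either chromosome. Knockout replicate 1 differed most from its group, with a chi-square per degree of freedom of 98.1 against replicate 2 and 106 against replicate 3, where replicates 2 and 3 gave 14.8. The cells are labelled as lung adenocarcinoma. Of the 6 epithelial markers listed, KRT8 and KRT18 were abundant, while EPCAM and CLDN7 reached at most 4.84 and 2.54 CPM in any library. CDH1 was at 150 to 173 CPM in the controls and at 33.8 to 66.1 CPM in the knockout. KRT19 was at 58.9 to 68.2 CPM in the controls and at 0.544 to 0.765 CPM in the knockout. The 6 lung lineage markers listed (surfactant genes, NKX2-1, NAPSA and SFTA3) summed to between 0.925 and 2.39 CPM in every library.

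More of the 41 genes passed as lower than as higher, by modest amounts, and 10 of the 13 falls were of soluble proteins. In the knockout 13 of 41 fell, 2 rose and 26 did not pass the threshold, which is 31.7% lower against 11.5% of all genes tested and 4.88% higher against 8.21%. The 13 falls lay between 19.2% and 44.4% of the control mean, led by the progranulin gene GRN. The groups did not overlap for 23 members, 20 with all knockout libraries below all controls and 3 above, against 41.3% of all genes tested (21.5% below and 19.7% above). Since these genes are well expressed, the fit of genes with a mean count of at least 100 gives a closer background. There 17 members passed, 41.5% of 41, against 28.8% of the 13897 genes in that fit. When 1 library was left out, the falls numbered 8, 5 and 7 for control replicates 1, 2 and 3 in turn, and 8 for knockout replicate 3. Without knockout replicate 1, the library that stood apart, there were 19 falls and 3 rises. With bulk RNA, less message in every cell and fewer cells with the message cannot be told apart.

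By class, 10 of 24 soluble lumenal proteins fell and 0 rose in edgeR (0 higher at an unadjusted p under 0.05, and 0 in DESeq2), though 1 rose with knockout replicate 1 left out. Of 7 membrane proteins 2 fell and 1 rose, and of 10 pump proteins 1 fell and 1 rose. Of all genes tested, 11.5% fell and 8.21% rose, so that the pump shares, 10% each, were near those of all genes. The median log2 fold change was -0.31 for the soluble proteins, -0.18 for the membrane proteins and -0.03 for the pump, beside 0.01 over all genes tested. Relative to the control mean, the median log2 ratio of the soluble class was -0.33 in each of knockout replicates 1, 2 and 3, with the controls between -0.04 and 0.05. The pump class stayed between -0.03 and 0.02 in all 6 libraries. For the membrane class knockout replicate 1 lay at 0.01 and replicates 2 and 3 at -0.20 and -0.24, so that its lower median came from 2 libraries of 3. Falls among the membrane proteins numbered 0 with any control replicate or knockout replicate 3 left out, 1 with knockout replicate 2 left out, and 4 when replicate 1 of the knockout was. The sign of the pump median turned without control replicate 2 or knockout replicate 3 and with other scalings, given below. The difference between the classes was not tested, because the members were chosen with results known.

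**Figure D1:**
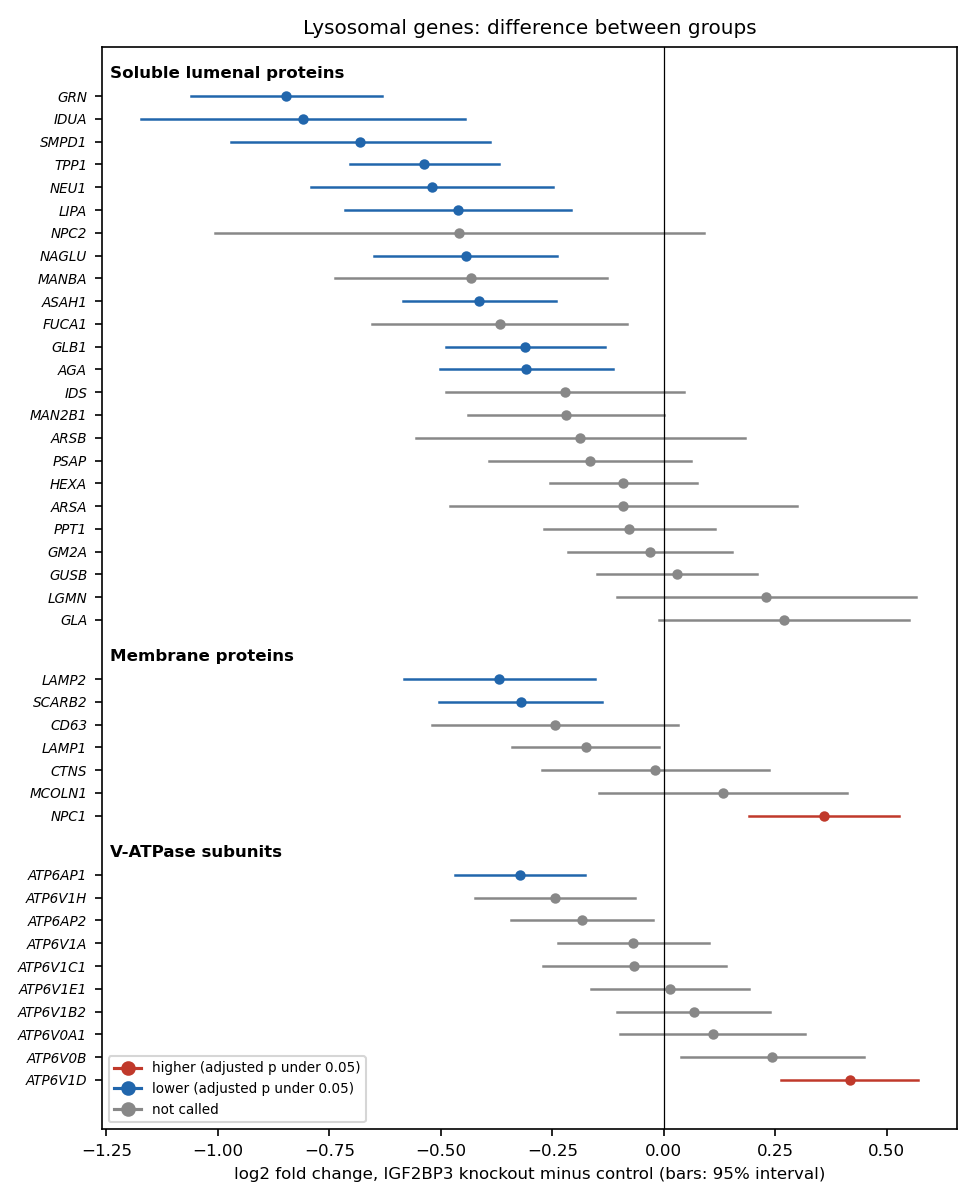
Log2 fold change of each of the 41 lysosomal genes (points, knockout minus control) with its 95% interval from the edgeR fit (bars), sorted within the 3 classes. Blue marks the 13 genes called lower and red the 2 called higher at an adjusted p of 0.05. The soluble proteins lie mostly left of 0, from -0.85 for GRN to 0.27 for GLA, and the pump subunits lie on both sides of 0.

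Levels per length differed far more between the genes than between the groups. In the controls the soluble proteins ran from 1.80 FPKM for ARSB, which removes sulfate from dermatan sulfate, to 341 ± 27.9 FPKM (SD, n = 3) for PSAP, the precursor of the saposins that present sphingolipids to hydrolases. GRN came next in that class at 69.8 ± 6.57 FPKM, followed by NPC2. IDS at 23.5 ± 0.343 FPKM and PPT1 at 23.1 ± 1.28 FPKM came after these and did not differ beyond their spread. Among membrane proteins the tetraspanin CD63 led at 126 ± 2.74 FPKM, and the calcium channel MCOLN1 was lowest at 2.47 ± 0.096 FPKM. The pump messages were closest together, between 6.41 ± 0.25 FPKM for ATP6V1H and 21.6 ± 0.372 FPKM for ATP6AP1. Added up, the soluble class held 683 ± 37.0 FPKM in the controls and 586 ± 44.1 FPKM in the knockout libraries, a sum to which PSAP contributed the most. The membrane class held 186 ± 4.01 and 164 ± 13.5 FPKM, and the pump class 129 ± 1.34 and 130.0 ± 2.47 FPKM. Summed levels of the 10 pump genes were thus within 1 SD of each other, while those of the lumenal and membrane proteins were lower by more than 1 SD.

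**Figure D2:**
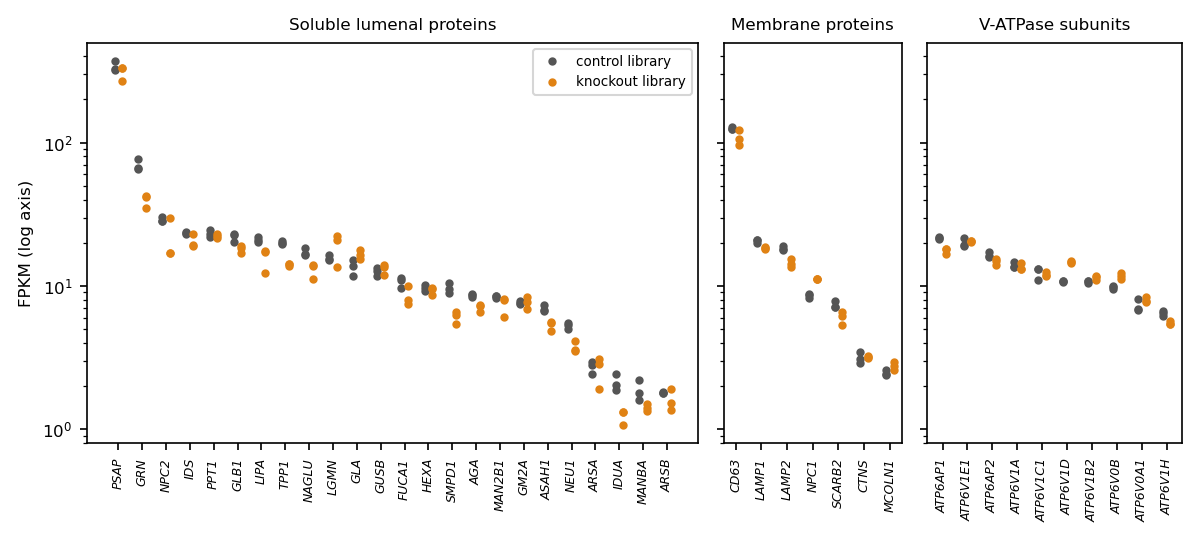
Deposited FPKM (log axis) of each gene in the 3 control libraries (grey) and the 3 knockout libraries (orange), ordered by the control mean within each class. PSAP and CD63 stand above the other members at 341 and 126 FPKM in the controls, and for GRN, at 69.8 FPKM, the orange points lie clear of the grey ones.

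The CACGTG letters were searched in RefSeq promoter windows (GRCh38.p14, 250 bases before to 50 after the annotated start), as background for the groups that follow. Windows were at hand for 29 of the 41 genes. The letters are their own reverse complement, so that 1 search covers both strands. At least 1 match was found for 6 of the 29 genes, or 20.7%, where 8.77% of all 27305 genes with a window had one. Some genes have several windows, 43 for the 29 members and 35116 for all genes, and a match in any of them counted. A gene with more windows thus had more chances of a match. Of all windows, 7.26% held the letters. The longer palindrome in which GT precedes and AC follows these letters, which contains the shorter one, was found for 1 of the 29 genes, MCOLN1, and in 0.421% of all genes. The matches are shown in 30-base windows with CACGTG in capitals, 5′ to 3′ on the strand of the gene, because they are all the members whose window held the letters. LAMP1 had 6 matches, of which those starting 192 and 28 bases before the start are given (chr13:113297035-113297064 and chr13:113297199-113297228, plus strand). MCOLN1 had 2 (chr19:7522571-7522600 and chr19:7522598-7522627, plus strand), as did the V0 subunit gene ATP6V0B (chr1:43974891-43974920 and chr1:43974909-43974938, plus strand). NEU1 (chr6:31862930-31862959), CD63 (chr12:55729172-55729201) and ARSB (chr5:78986101-78986130), all on the minus strand, had 1 each.
LAMP1, 192 before: accaggccgggtCACGTGggtccagggtca
LAMP1, 28 before: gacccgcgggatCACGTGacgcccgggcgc
MCOLN1, 41 before: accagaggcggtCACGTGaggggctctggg
MCOLN1, 14 before: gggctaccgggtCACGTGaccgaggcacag
ATP6V0B, 57 before: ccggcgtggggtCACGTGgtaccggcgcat
ATP6V0B, 39 before: gtaccggcgcatCACGTGggcgagttaggt
NEU1, 126 before: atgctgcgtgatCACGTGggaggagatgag
CD63, 180 before: ccgggtaggggcCACGTGgccctggccggg
ARSB, 160 before: taattcaataagCACGTGactaaaggattt
Of the 10 genes that fell and have a window, 1 (NEU1) held the letters, and of the 2 that rose, 0 did. The other 5 genes with a match, LAMP1 with its 6 among them, did not pass the threshold. A match is a description of the sequence only, and no match says only that these letters are absent from this window.

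Sphingolipid degradation is carried out by 8 of the members, of which 3 fell and 5 did not pass. Of all genes tested, 11.5% fell. SMPD1, the acid sphingomyelinase that cleaves sphingomyelin to ceramide (ENSG00000166311, chromosome 11 from 6390440 to 6394998, plus strand), stood at 25.7, 27.7 and 30.5 CPM in the controls and at 19.8, 15.03 and 17.5 CPM with IGF2BP3 disrupted. Every knockout library was below every control, and the fall was 37.6% of the control mean (log2 fold change -0.68, SE 0.13, adjusted p = 0.0086). ASAH1, the acid ceramidase that acts on the product of that step (ENSG00000104763, chromosome 8 from 18055992 to 18084998, minus strand), went from 109.8, 109.5 and 121 CPM to 81.6, 87.3 and 86.7 CPM. This fall, with knockout libraries close together and clear of the controls, gave a log2 fold change of -0.41, SE 0.07 (adjusted p = 0.0075). GLB1, the beta-galactosidase that trims GM1 ganglioside (ENSG00000170266, chromosome 3 from 32996609 to 33097146, minus strand), was at 92.4, 106 and 105 CPM in the controls and at 80.4, 81.0 and 83.1 CPM in the knockout (log2 fold change -0.31, SE 0.08, adjusted p = 0.027). That call held in 2 of the 6 fits that left out 1 library, being lost without control replicate 2 (adjusted p = 0.12), control replicate 3 (0.075), knockout replicate 2 (0.089) or knockout replicate 3 (0.075). The calls for SMPD1 and ASAH1 held in all 6.

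The remaining sphingolipid genes did not pass. PSAP, the most abundant member, was at 1079, 1062 and 1236 CPM in the controls and 923, 1046 and 1043 CPM in the knockout libraries, which were lower without overlap but by little beside the spread (log2 fold change -0.17, 95% interval -0.39 to 0.06, adjusted p = 0.29). GLA, the alpha-galactosidase missing in Fabry disease, was at 90.1, 99.2 and 76.9 CPM and then 121, 103 and 96.3 CPM, with overlapping groups (log2 fold change 0.27, 95% interval -0.01 to 0.55, adjusted p = 0.17). On the opposite strand RPL36A shares 2883 bases with GLA and has 125% of its counts, though the 2 share 0 exonic bases in GENCODE 29. HEXA, the alpha subunit of beta-hexosaminidase, its activator GM2A and the sulfatase ARSA had log2 fold changes of -0.09, -0.03 and -0.09. Within the pathway, the falls were thus at the steps on sphingomyelin, ceramide and GM1, and the genes for the steps on GM2 and sulfatide had intervals that include 0.

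Glycoprotein degradation showed 2 falls among 5 genes, and all 5 had every knockout library below every control. Of all genes tested, 11.5% fell and 21.5% had every knockout library below every control. NEU1, the sialidase that removes terminal sialic acid (ENSG00000204386, chromosome 6 from 31857659 to 31862905, minus strand), was at 25.6, 27.3 and 28.1 CPM in the controls. In the knockout it was at 21.9, 17.1 and 17.6 CPM, with replicate 1 nearest to the controls (log2 fold change -0.52, SE 0.12, adjusted p = 0.019). AGA, which splits the bond between asparagine and the glycan (ENSG00000038002, chromosome 4 from 177430774 to 177442437, minus strand), showed little spread within either group. Its levels were 23.1, 24.2 and 23.9 CPM in the controls and 19.0, 19.4 and 19.1 CPM in the knockout (log2 fold change -0.31, SE 0.08, adjusted p = 0.037). Both calls held with knockout replicate 1 left out and were lost with any other library left out (adjusted p from 0.052 to 0.074 for NEU1 and from 0.076 to 0.14 for AGA). FUCA1, the alpha-fucosidase, was at 23.9, 20.9 and 24.6 CPM and then at 16.7, 16.5 and 20.6 CPM (log2 fold change -0.37, 95% interval -0.65 to -0.08, adjusted p = 0.074). For the alpha-mannosidase MAN2B1 the values were 47.0, 48.2 and 49.0 CPM and 36.0, 44.0 and 43.8 CPM (log2 fold change -0.22, adjusted p = 0.15). The beta-mannosidase MANBA had a log2 fold change of -0.43 and an adjusted p of 0.056. These 3 lay on the same side as the called genes without passing.

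Glycosaminoglycans are dismantled from their ends by enzymes in sequence, of which 5 are members. IDUA, the alpha-iduronidase missing in Hurler syndrome (ENSG00000127415, chromosome 4 from 986997 to 1004564, plus strand), was at 8.10, 10.5 and 8.89 CPM in the controls and at 4.82, 5.42 and 5.43 CPM in the knockout. It fell by 43.0%, with SD of 1.22 and 0.351 CPM in the 2 groups (log2 fold change -0.81, SE 0.16, adjusted p = 0.010). SLC26A1 lies across it on the opposite strand with 37.5% of its counts and 534 shared exonic bases of 4000 (log2 fold change -0.22, adjusted p = 0.67). NAGLU, the N-acetylglucosaminidase of heparan sulfate breakdown (ENSG00000108784, chromosome 17 from 42536241 to 42544449, plus strand), went from 51.0, 51.6 and 57.4 CPM to 35.8, 40.5 and 41.3 CPM. The groups were apart, the fall was 26.5% (log2 fold change -0.44, SE 0.09, adjusted p = 0.011), and the call held in all 6 fits with a library left out. For IDUA it held in 5, the exception being control replicate 2 (adjusted p = 0.052). IDS, the iduronate sulfatase, was at 230.5, 235 and 229 CPM in the controls and at 236, 178 and 181 CPM in the knockout (log2 fold change -0.22, adjusted p = 0.23). Knockout replicate 1 was thus the highest of all 6 libraries for IDS, while the other knockout libraries were the lowest. A pseudogene of IDS is annotated in GENCODE 29 and can share its reads. GUSB, the beta-glucuronidase, was at 55.0, 48.6 and 53.0 CPM and then at 51.1, 53.7 and 55.1 CPM, within the spread of both groups (log2 fold change 0.03, 95% interval -0.15 to 0.21). GENCODE 29 lists 11 pseudogenes named after GUSB, which makes its count uncertain. The log2 fold change of ARSB was -0.19 (adjusted p = 0.47).

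Among the other lumenal proteins, 3 of 6 fell, against 11.5% of all genes tested. GRN, which encodes progranulin, the precursor from which lysosomal proteases release granulins (ENSG00000030582, chromosome 17 from 44345246 to 44353102, plus strand), stood at 249, 244 and 290.2 CPM in the controls. In the knockout libraries it stood at 136, 149 and 151 CPM, in each case well under the lowest control. Its mean fell from 261 ± 25.4 to 145 ± 8.20 CPM, by 44.4% (log2 fold change -0.85, SE 0.09, adjusted p = 8.8e-04), the largest fall among the 41. TPP1, the tripeptidyl peptidase that shortens proteins from the amino end (ENSG00000166340, chromosome 11 from 6612768 to 6619448, minus strand), fell from 138 ± 2.88 to 95.2 ± 5.52 CPM. By library it was at 141, 136 and 137 CPM and then at 101, 90.3 and 94.3 CPM (log2 fold change -0.54, SE 0.07, adjusted p = 0.0022). Both calls held with each library left out. LIPA, the acid lipase of cholesteryl esters and triglycerides (ENSG00000107798, chromosome 10 from 89213569 to 89414557, minus strand), was at 108, 105 and 115 CPM and then at 66.4, 86.5 and 85.0 CPM. Knockout replicate 1 was lowest, and the call (log2 fold change -0.46, SE 0.11, adjusted p = 0.023) was lost with control replicate 1, 2 or 3 left out (adjusted p from 0.067 to 0.077). The interferon-induced genes IFIT1, IFIT2 and IFIT3 lie across LIPA on the opposite strand with 11.1%, 10.1% and 16.1% of its counts. IFIT3 and IFIT2 had log2 fold changes in the direction of LIPA, -0.53 (adjusted p = 0.051) and -0.48 (adjusted p = 0.11), and IFIT1 0.33 (adjusted p = 0.32). Of the 4910 exonic bases of LIPA, 65 are shared with IFIT2 and 0 with the other IFIT genes here.

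NPC2, which hands cholesterol to NPC1, had the largest SE of the 41, 0.24. It was at 78.0, 77.5 and 83.1 CPM in the controls and at 84.6, 44.5 and 44.5 CPM in knockout replicates 1, 2 and 3. Replicate 1 was thus above every control and the other 2 far below (log2 fold change -0.46, 95% interval -1.01 to 0.09, adjusted p = 0.22). LGMN, an asparagine-specific protease, split the other way, at 67.3, 63.1 and 62.8 CPM in the controls and at 57.7, 86.6 and 82.3 CPM in the knockout (adjusted p = 0.32). With knockout replicate 1 left out both passed, NPC2 as lower (log2 fold change -0.83, adjusted p = 1.5e-04) and LGMN as higher (0.40, adjusted p = 0.0037). PPT1, the palmitoyl thioesterase that strips fatty acids from proteins, was at 87.0, 83.0 and 78.4 CPM and then at 85.4, 73.7 and 76.2 CPM (log2 fold change -0.08, 95% interval -0.27 to 0.11).

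**Figure D3:**
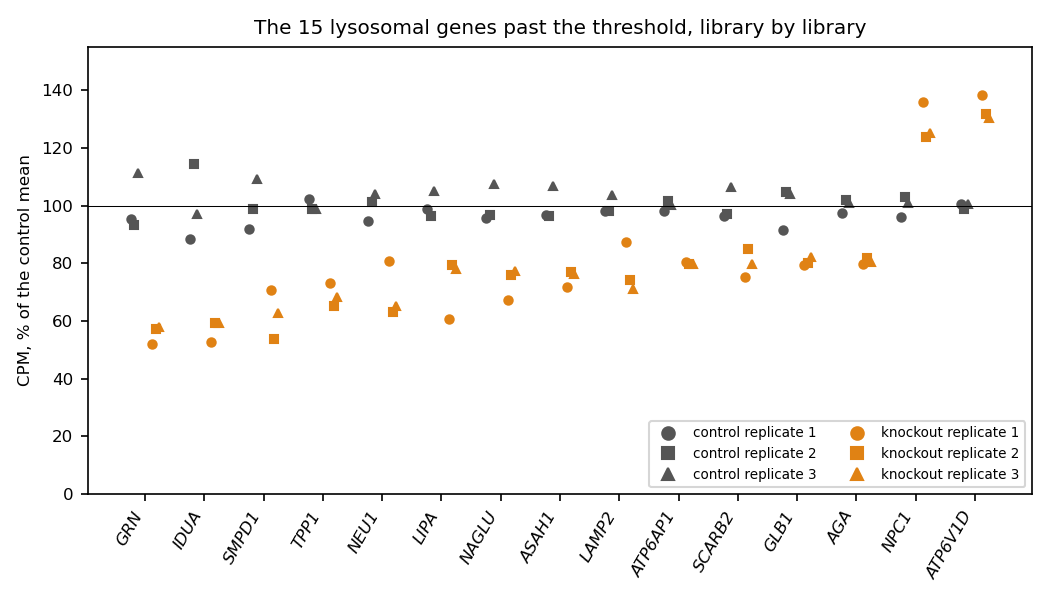
CPM of the 15 genes past the threshold in each library, as a percentage of the control mean (controls in grey, knockout in orange). Symbols mark replicate numbers, which were not taken to pair libraries. For all 15 the orange points lie on one side of all the grey ones. GRN and IDUA are lowest, 44.4% and 43.0% under the control mean, and NPC1 and ATP6V1D are the 2 above it.

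Membrane proteins went both ways. LAMP2, an abundant membrane glycoprotein whose splice forms serve chaperone-mediated autophagy and fusion (ENSG00000005893, X chromosome from 120426148 to 120469365, minus strand), was at 179, 179 and 189 CPM in the controls and at 159, 135 and 129.6 CPM in the knockout. It fell by 22.5% (log2 fold change -0.37, SE 0.09, adjusted p = 0.028), with replicate 1 the nearest to the controls. SCARB2, the receptor that carries glucocerebrosidase to lysosomes (ENSG00000138760, chromosome 4 from 76158737 to 76234536, minus strand), was at 146, 147 and 161 CPM and then at 114, 129 and 121 CPM. The groups did not overlap (log2 fold change -0.32, SE 0.08, adjusted p = 0.027). The LAMP2 call held with knockout replicate 1 left out and was lost with any other library left out (adjusted p from 0.082 to 0.10). The SCARB2 call was lost with control replicate 1, 2 or 3 or knockout replicate 3 left out (adjusted p from 0.071 to 0.086). NPC1, which passes cholesterol on from NPC2 to the membrane (ENSG00000141458, chromosome 18 from 23506184 to 23576947, minus strand), rose. It was at 84.9, 91.1 and 89.3 CPM in the controls and at 120.3, 109 and 111 CPM in the knockout, 28.3% above the control mean (log2 fold change 0.36, SE 0.07, adjusted p = 0.012), a call lost with control replicate 1 left out (adjusted p = 0.070). RMC1, on the opposite strand with 15.3% of the counts of NPC1, had a log2 fold change of 0.03.

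LAMP1, the close relative of LAMP2, has the promoter window with 6 CACGTG matches, some of them shown above. It was at 126, 121 and 128 CPM in the controls and at 117, 109 and 106 CPM in the knockout. The groups did not overlap, but the log2 fold change of -0.18 (95% interval -0.34 to -0.01) had an adjusted p of 0.13. CD63 was at 320.0, 318 and 333 CPM and then at 324, 259 and 236 CPM, replicate 1 again lying with the controls (log2 fold change -0.24, adjusted p = 0.20). The cystine exporter CTNS and MCOLN1, the least abundant membrane members, had log2 fold changes of -0.02 and 0.13. Their 95% intervals ran from -0.27 to 0.24 and from -0.15 to 0.41. The sign for CTNS changed in 5 of 16 alternative fits.

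The proton pump was the class with the median log2 fold change nearest to 0, with 5 members below 0 and 5 above. Its single members ran from -0.32 to 0.42, beside -0.37 to 0.36 for the membrane proteins. Among the 6 members of the V1 sector, 1 rose and 0 fell in edgeR (1 lower at an unadjusted p under 0.05, and 1 in DESeq2). Of all genes tested, 8.21% rose and 11.5% fell. ATP6V1D, a subunit of the central rotor stalk (ENSG00000100554, chromosome 14 from 67294371 to 67359832, minus strand), was at 49.0, 48.1 and 49.0 CPM in the controls and at 67.3, 64.1 and 63.5 CPM in the knockout. This is a rise of 33.5% with narrow spread (log2 fold change 0.42, SE 0.07, adjusted p = 0.0047), and the call held in all 6 fits with a library left out. PALS1 overlaps the span of ATP6V1D by 41691 bases on the opposite strand, has 137% of its counts and was itself higher (log2 fold change 0.33, adjusted p = 0.025). The 2 genes share 0 exonic bases in GENCODE 29, but the annotation release behind the counts is not given. Whether reads fell to both genes was not tested. ATP6V1E1, of the peripheral stalk, was at 64.0, 71.4 and 63.5 CPM and then at 69.7, 65.8 and 65.3 CPM (log2 fold change 0.01, 95% interval -0.16 to 0.19). ATP6V1A, the catalytic subunit, was at 79.4, 73.6 and 74.0 CPM and then at 73.3, 75.1 and 68.0 CPM (log2 fold change -0.07, 95% interval -0.24 to 0.10). ATP6V1B2, which pairs with the catalytic subunit, and ATP6V1C1, of the stator, had log2 fold changes of 0.07 and -0.07, and ATP6V1H, a regulatory subunit, -0.24 with an adjusted p of 0.064. For the 8 pump members that did not pass, the 95% intervals lay between -0.42 and 0.45 on the log2 scale.

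In the V0 sector and its accessory proteins 1 of 4 fell, against 11.5% of all genes tested. ATP6AP1, an accessory protein of pump assembly (ENSG00000071553, X chromosome from 154428633 to 154436516, plus strand), was at 128, 133 and 131 CPM in the controls and at 105, 104 and 104 CPM in the knockout. Spread in the knockout was only 0.513 CPM (log2 fold change -0.32, SE 0.06, adjusted p = 0.011), and the call was lost with control replicate 2 left out (adjusted p = 0.065). ATP6AP2, also known as the prorenin receptor, was at 163, 161 and 175 CPM and then at 148, 144 and 148 CPM, without overlap (log2 fold change -0.18, adjusted p = 0.10). ATP6V0B, of the proton-carrying ring, was at 33.4, 34.4 and 33.1 CPM and then at 44.1, 38.5 and 36.9 CPM, without overlap in the other direction (log2 fold change 0.24, adjusted p = 0.096). ATP6V0B, with 2 CACGTG matches, and ATP6AP1 thus lay on opposite sides. ATP6V0A1, the large membrane subunit, had a log2 fold change of 0.11.

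Several members separated knockout replicate 1 from replicates 2 and 3 rather than the groups. For IDS, ARSB and NPC2 replicate 1 was above all controls, and for CD63 it lay among them, while replicates 2 and 3 were below all controls for each of the 4. ARSB was at 17.1, 17.0 and 16.9 CPM in the controls and at 18.7, 13.8 and 12.4 CPM in the knockout. With replicate 1 left out, IDS, ARSB, NPC2, CD63, LAMP1 and ATP6V1H passed as lower beside the 13. Their adjusted p was then 0.0022 for IDS, 0.035 for ARSB, 0.0040 for CD63, 0.031 for LAMP1 and 0.029 for ATP6V1H. IGF2BP3 too was highest in replicate 1 among the knockout libraries, at 39.9 CPM, and its part in these differences was not tested.

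The position of the genes was set beside their change. The 15 genes past the threshold lie on 10 chromosomes. For the 50 tested genes nearest to each, the median log2 fold change ran from -0.14 around SCARB2 to 0.15 around GRN. For 1 of the 15, SCARB2, the neighbours lay in the same direction by more than 0.1. Close below that cut, in the direction of the gene, were the medians around LIPA (-0.098), ATP6V1D (0.096) and ASAH1 (-0.083). For GRN, NAGLU, AGA and LAMP2, which fell, the median of the neighbours was above 0. Around GRN, which fell, 9 of 50 neighbours rose and 2 fell, and around SCARB2 2 rose and 10 fell. Around TPP1 3 rose and 11 fell, around SMPD1 1 rose and 10 fell, and around ASAH1 1 rose and 9 fell. Around ATP6V1D, which rose, 10 rose and 5 fell. Of all genes tested, 8.21% rose and 11.5% fell. The part of the neighbourhood in the calls was not tested. A gene of at least 5% of the member's counts overlapped 9 of the 41 members in the table.

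Other lysosomal genes, 97 from lists of the same pathway, were compared in the same fit. Of these 95 were tested, 32 fell, 4 rose and 59 did not pass. Without the 10 on chromosome 16, 24 of 85 fell and 4 rose, 28.2% and 4.71% against 11.5% and 8.21% of all genes. The 4 rises became 1 when control replicate 1 was left out, and 2 when control replicate 2 or knockout replicate 2 or 3 was. Among 24 other hydrolases and cofactors 9 fell and 1 rose. They included the sialate esterase SIAE (52.0 ± 3.22 to 26.1 ± 2.56 CPM, adjusted p = 5.2e-04), the secreted glycoprotein CREG1 (95.4 ± 5.57 to 51.9 ± 6.20 CPM, adjusted p = 0.0011), and SUMF1, which activates sulfatases by converting a cysteine in them (30.3 ± 2.66 to 17.3 ± 0.715 CPM, adjusted p = 0.0014). CTSA, which shields NEU1 and GLB1 in a complex, fell from 128 ± 2.67 to 92.7 ± 3.17 CPM (adjusted p = 0.0030).

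Among 20 other membrane proteins 10 fell and 2 rose, against 11.5% and 8.21% of all genes. Of these falls 3 (CLCN7, SPNS1 and CLN3) are on chromosome 16, off which 7 of 17 fell and 2 rose. CLN3 is named for its position, after its values were seen. The chloride-proton exchanger CLCN7, on chromosome 16, fell from 87.7 ± 1.93 to 44.3 ± 1.51 CPM, and the endolysosomal cation channel TPCN1 from 187 ± 14.1 to 86.1 ± 8.85 CPM (adjusted p = 1.2e-04 and 3.6e-04). SLC29A3, a nucleoside transporter, fell from 21.7 ± 0.974 to 12.7 ± 0.622 CPM, and SPNS1, on chromosome 16, from 47.8 ± 1.40 to 30.9 ± 2.46 CPM. Among 14 other tested pump subunits 3 fell and 0 rose in edgeR (1 higher at an unadjusted p under 0.05, and 0 in DESeq2). They were TCIRG1, an isoform of the large V0 subunit, from 148 ± 14.9 to 90.3 ± 1.24 CPM (adjusted p = 0.0015), and ATP6V0D1 and ATP6V0C, both on chromosome 16, with log2 fold changes of -0.75 and -0.55. Over all 24 tested pump genes 4 fell and 1 rose, so that 20.8% passed, near the 19.7% of all genes tested.

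Of 16 genes of sorting and delivery 6 fell, against 11.5% of all genes, and 0 rose in edgeR (0 higher at an unadjusted p under 0.05, and 0 in DESeq2). Off chromosome 16, 4 of 14 fell. The sorting receptor SORT1, which takes up progranulin and prosaposin, fell from 52.5 ± 7.19 to 29.5 ± 2.27 CPM (adjusted p = 0.0024). GNPTG and NAGPA, which act in making the mannose 6-phosphate tag, are on chromosome 16, among neighbours with medians of -0.57 and -0.51, and fell with log2 fold changes of -0.66 and -0.85. VPS18, a subunit of the tethering complexes for late endosomes and lysosomes, fell from 46.8 ± 2.54 to 32.2 ± 5.44 CPM (adjusted p = 0.020), a call that held in 1 of 6 fits with a library left out (adjusted p up to 0.073). Of 21 tested transcription factors and mTORC1 regulators 4 fell and 1 rose, 23.8% of them, near the 19.7% of all genes tested. Off chromosome 16, 3 of 20 fell. MITF fell from 31.1 ± 2.29 to 17.5 ± 1.68 CPM (adjusted p = 0.0018), RRAGA, a GTPase that recruits mTORC1, from 102 ± 5.92 to 63.7 ± 8.04 CPM among neighbours with a median of -0.41, and TSC2, of the complex that restrains mTORC1, on chromosome 16, from 100.5 ± 2.59 to 61.6 ± 5.74 CPM. RRAGD rose from 8.41 ± 2.58 to 14.8 ± 0.541 CPM (adjusted p = 0.032), a call that held in 2 of 6 such fits (adjusted p up to 0.11). TFEB and TFE3 had log2 fold changes of -0.47 and -0.20 and did not pass (adjusted p = 0.19 and 0.30). For TFEB, at 9.07, 8.75 and 9.15 CPM in the controls, knockout replicates 1, 2 and 3 were at 8.86, 5.04 and 5.61 CPM. Replicate 1 thus lay among the controls, and TFEB passed in 1 of the 6 fits with a library left out. On the opposite strand, the most abundant overlapping gene holds 78.7% of the counts of SIAE and 45.2% of those of SUMF1. The shares for GNPTG, NAGPA and TSC2 are 72.7%, 329% and 102%. The largest share of exonic bases in common with 1 opposite-strand gene was 28.1% for SIAE (with TBRG1) and 22.2% for GNPTG (with UNKL). It was 3.96% for TSC2, 2.73% for SUMF1 and 1.46% for NAGPA, and how reads there were assigned is not stated.

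**Figure D4:**
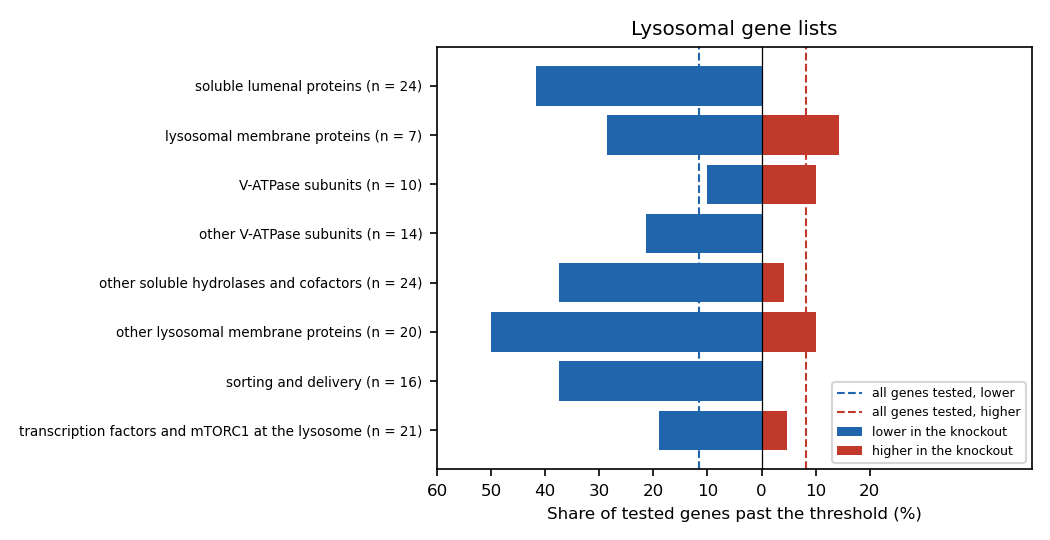
Share of tested genes past the threshold in the 3 classes of members and in 5 lists of other lysosomal genes, lower in the knockout to the left (blue) and higher to the right (red), with the shares of all genes tested as dashed lines (11.5% and 8.21%). The soluble members, at 41.7% lower, and the other membrane proteins, at 10 of 20, reach furthest beyond the dashed line, while the pump members are at 1 of 10 on both sides.

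Markers of other cell types were summed in each library, since macrophages are rich in lysosomes. The 6 leukocyte and macrophage markers in the table summed to between 33.8 and 43.3 CPM in the controls and between 16.9 and 20.9 CPM in the knockout, with 2 of the 3 tested called lower. CD14 and CD68, itself a lysosomal membrane protein, made up most of the sum. The defining leukocyte marker PTPRC was at 0 in the 3 controls and at most 0.297 CPM in the knockout, CD3E was at 0 in all 6 libraries and CSF1R reached at most 0.221 CPM. Fibroblast markers reached a sum of 8.60 CPM at most in a control and 12.3 CPM in a knockout library, and endothelial markers to at most 0.730 CPM. Epithelial markers, mostly KRT8 and KRT18, summed lower in the knockout (4038 to 4514 CPM against 7697 to 8274 CPM, 4 of 6 called lower). The part of either list in the lysosomal differences was not tested.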

How the data were processed

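The deposited table holds, for each gene and library, a count (whole numbers, not normalized) and an FPKM (scaled to length and depth by the authors), per the file headers. Reads were trimmed with Cutadapt, aligned with HISAT2 2.0.4 to GRCh38 and quantified with StringTie 1.3.4d, per the labels' protocols and the submitters' processing notes. Annotation release and strand setting: not given in the sources used here. Between 69.9% and 71.0% of counts from 4 to 10 were even, as when both mates of a pair are counted, so that independent fragments are fewer than counts.

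Genes passing edgeR's filterByExpr (about 10 counts in as many libraries as a group holds, 15 in total) were scaled by TMM and tested with edgeR 4.0.16 in R 4.3.3 (quasi-likelihood, genotype as the only term, all 6 libraries). Benjamini-Hochberg adjustment ran over 20134 genes, with a threshold of 0.05. Fits were tested on simulated counts. Replicates were kept as separate libraries, none agreeing within sampling noise (smallest chi-square per degree of freedom 12.2). The members and lists were chosen with earlier results of these data known, so lists have counts and medians only. Named are the genes past the threshold, in each role up to 2 others with the highest FPKM, and up to 4 called genes per further list while the remaining members are named with fewer values. Alternatives used limma 3.58.1 and DESeq2 1.42.0. Protein sequences were not analysed here.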

Additional observations from a re-analysis of the deposited data

How the results depend on the processing

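These results are limited by small differences and 3 libraries a group. Tested against a minimum fold of 1.5 in edgeR, 0 of the 41 lysosomal members were called lower and 0 higher (2 lower and 0 higher at an unadjusted p under 0.05, smallest adjusted p 0.055 for GRN), where DESeq2 with no minimum called 16 lower and 2 higher. The all genes called then numbered 930, and IGF2BP3 (-0.91) had an adjusted p of 0.25.

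With 1 library left out, lysosomal members called lower numbered from 5 to 19 and lysosomal members called higher from 1 to 3, and all genes called from 2183 to 5338. The log2 fold change of IGF2BP3 lay between -1.20 and -0.75. Of the 15 called members, 6 (GRN, TPP1, SMPD1, ASAH1, NAGLU and ATP6V1D) passed in all 6 such fits.

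The soluble lumenal proteins median log2 fold change was -0.27 with quantile normalization, -0.25 on log2(FPKM + 1) and -0.28 on log2(FPKM + 0.1). The V-ATPase subunits median log2 fold change turned from -0.026 to 0.0043, 0.0057 and 0.0058 under these settings and lay between -0.051 and 0.018 with 1 library left out. CTNS turned to 0.043, 0.0094 and 0.013, and with 1 library left out lay between -0.068 and 0.052. Signs also turned with 1 library left out for ATP6V1E1 (-0.017 to 0.075), GUSB (-0.014 to 0.068), ARSA (-0.20 to 0.062) and GM2A (-0.079 to 0.0099), none of them called. None of the 15 called members changed sign in the 16 alternatives run. The cause was not tested.

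The labels do not say whether libraries with the same replicate number were prepared together, and the main fit did not pair them. Deviations from the group mean correlated at -0.0046, -0.072 and -0.058 for same-numbered libraries. For other pairs the correlations ran from -0.051 to 0.11, so that these values cannot settle pairing. With the replicate block, 9 members were called lower and 2 higher, the calls for GLB1, AGA, LAMP2 and SCARB2 being lost, and all genes called numbered 3001.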
